A study of Mus musculus with 8 samples.

Results

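Klf2, Foxo1, S1pr1, S1pr4, S1pr5 and Ccr7 are 6 genes of the programme by which lymphocytes leave and enter organs, and they were read from the rows of the deposited count matrix that carry these symbols. They are 6 of the 27179 genes in the matrix, and all 6 were among the 13184 genes with enough counts to be tested. RNA of natural killer (NK) cells from C57BL/6 mice had been sequenced in 8 libraries, 2 in each of 4 groups: CIS-null in vitro, wild-type in vitro, CIS-null ex vivo and wild-type ex vivo. CIS-null cells lack CIS, the product of Cish, a SOCS family inhibitor of cytokine signalling. Cells had come from spleen, bone marrow and blood and had been selected on microbeads with the DX5 antibody against CD49b. The labels name no agent or duration for the cells kept in vitro and do not say whether the replicates of a group were independent. The p-values thus cover the spread among these libraries alone, which may be technical. The labels give the null genotype without its allele or the cells in which it acts.

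KLF2 is a zinc-finger transcription factor of resting lymphocytes that, in T cells, switches on S1pr1. FOXO1 is a forkhead factor that AKT and SGK1 phosphorylate and drive out of the nucleus, and in T cells it induces Klf2, Il7r and Ccr7. Sphingosine 1-phosphate (S1P) is abundant in blood and lymph and scarce inside tissues, and lymphocytes follow it out through S1P receptors. T cells use S1PR1 for this, NK cells also need S1PR5 to leave bone marrow and lymph nodes, and S1PR4 is a further receptor of blood cells. CCR7, the receptor for CCL19 and CCL21, guides cells into and within lymph nodes.

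The 6 genes lie apart in the genome, and RefSeq promoter sequence (250 bases before to 50 after the start, GRCm38.p6) was at hand for Klf2, Foxo1, S1pr4 and S1pr5. In that build Klf2 spans chr8:72319062-72321654 on the plus strand and Foxo1 chr3:52268337-52350109 on the plus strand. S1pr1 spans chr3:115710433-115715055, S1pr4 chr10:81497745-81500137, S1pr5 chr9:21242917-21248443 and Ccr7 chr11:99144199-99155077, all on the minus strand. S1pr5 shares chromosome 9 with Cish, the gene null in CIS-null cells, at a distance of 86.0 Mb. The gene annotation has Gm20402 on the other strand and Gm38034 on the same strand overlapping Foxo1, and Gm48303 on the other strand of S1pr5. Whether counting used strand is not given in the sources used here, so reads of these partners cannot be told apart, and strand would not separate those of Gm38034 and Foxo1 where they overlap. The 4 promoters at hand are shown, 5′ to 3′ on the strand of the gene. The fall of these genes in culture ran from the steepest of the 6 in S1pr5, through Klf2 and S1pr4, to the slightest in Foxo1. A link between promoter letters and these falls was not tested. Capitals mark matches to the KLF motif CACCC or its reverse complement and, in Klf2, to the MEF2 motif.
Klf2 promoter, chr8:72318812-72319111, strand plus: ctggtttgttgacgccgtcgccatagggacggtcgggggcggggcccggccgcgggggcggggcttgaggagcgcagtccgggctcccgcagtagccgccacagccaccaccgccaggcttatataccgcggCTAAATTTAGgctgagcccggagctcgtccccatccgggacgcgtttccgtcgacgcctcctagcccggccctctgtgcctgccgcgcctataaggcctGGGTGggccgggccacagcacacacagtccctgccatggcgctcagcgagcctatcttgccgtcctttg
Foxo1 promoter, chr3:52268087-52268386, strand plus: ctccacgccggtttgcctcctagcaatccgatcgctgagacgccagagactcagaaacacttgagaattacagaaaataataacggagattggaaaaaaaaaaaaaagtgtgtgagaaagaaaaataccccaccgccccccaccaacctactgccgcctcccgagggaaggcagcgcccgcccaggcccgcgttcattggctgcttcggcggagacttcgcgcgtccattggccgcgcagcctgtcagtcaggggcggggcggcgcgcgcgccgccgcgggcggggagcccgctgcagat
S1pr4 promoter, chr10:81500088-81500387, strand minus: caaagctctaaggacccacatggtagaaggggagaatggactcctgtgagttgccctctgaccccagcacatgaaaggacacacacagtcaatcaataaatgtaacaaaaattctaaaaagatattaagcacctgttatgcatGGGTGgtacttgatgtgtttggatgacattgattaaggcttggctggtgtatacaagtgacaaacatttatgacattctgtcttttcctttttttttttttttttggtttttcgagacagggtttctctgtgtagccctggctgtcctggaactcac
S1pr5 promoter, chr9:21248394-21248693, strand minus: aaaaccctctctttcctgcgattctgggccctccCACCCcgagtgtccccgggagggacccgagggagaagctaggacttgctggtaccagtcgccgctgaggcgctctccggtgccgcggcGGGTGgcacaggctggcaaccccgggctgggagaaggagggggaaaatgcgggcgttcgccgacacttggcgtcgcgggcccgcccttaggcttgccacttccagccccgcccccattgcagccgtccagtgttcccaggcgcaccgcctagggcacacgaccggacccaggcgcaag
The Klf2 promoter held 1 MEF2 match, 118 bases before the start, and a KLF match 19 bases before it. MEF2 factors act downstream of the kinase ERK5 and are known activators of Klf2. S1pr4 had a KLF match 107 bases before its start, and S1pr5 had KLF matches 216 and 128 bases before its start. Among all 32851 mouse promoters of this length, 57.5% held the KLF motif and 3.19% the MEF2 motif, searched on both strands, so a KLF match is common. The FOXO motif GTAAACA, present in 3.65% of promoters, and the T-box motif GGTGTGA, present in 3.98%, were found in none of the 4. The GC box GGGCGG, present in 35.7%, occurred 2 times in Klf2, 5 times in Foxo1 and 2 times in S1pr5. KLF, MEF2 and GC box matches in these 4 windows did not overlap, except that the GC boxes 2 and 7 bases after the Foxo1 start share a base. The E-box CAGGTG that ZEB factors bind, present in 20.2%, occurred 1 time, in S1pr4, 121 bases before the start. A match here is a description of letters and not a binding site.

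Before the genes, the libraries were checked against their labels. They held 27.4 and 27.2 M counts (M for 1e6) in CIS-null in vitro cells, 28.1 and 27.9 M in wild-type in vitro cells, 21.5 and 24.9 M in CIS-null ex vivo cells and 23.1 and 24.6 M in wild-type ex vivo cells. Cish lay at 21.2 and 17.2 CPM (counts per 1e6, scaled between libraries) in CIS-null in vitro cells, against 219.8 and 201.9 CPM in wild-type in vitro cells, while ex vivo CIS-null cells had 1.29 and 2.64 CPM of it, against 9.26 and 9.12 CPM in wild-type ex vivo cells. All 8 markers of NK cells were detected in every library, at a summed 15707 to 30241 CPM. The largest part of that sum was Gzma, a granzyme gene, at 20326 to 25875 CPM in CIS-null in vitro cells, 11678 to 13997 CPM in wild-type in vitro cells, 9993 to 11474 CPM in CIS-null ex vivo cells and 9596 to 9765 CPM in wild-type ex vivo cells. On culture 6 of the 8 NK markers were called lower in each genotype and 1, Gzma, higher. Of all tested genes, 37.5% (CIS-null) and 31.6% (wild-type) were called lower on culture, and 34.8% and 32.1% higher. Itga2, which encodes the CD49b that DX5 binds, was at 7.13 to 10.02 CPM in CIS-null in vitro cells and 18.2 to 21.2 CPM in wild-type in vitro cells, against 235 to 244 CPM in CIS-null ex vivo cells and 274 to 277 CPM in wild-type ex vivo cells. Xist, the RNA of the inactive X chromosome, was at 130.7 and 89.7 CPM in CIS-null in vitro cells, against 0 and 0.0351 CPM in wild-type in vitro cells. Ex vivo its order was the reverse, with 0.322 and 0.197 CPM in CIS-null cells, against 119.6 and 162.1 CPM in wild-type cells, so genotype cannot be told apart from a sex-linked difference within either state. The same holds for culture within either genotype and for the difference between states. Wild-type ex vivo libraries also held Eif2s3y, a gene of the Y chromosome (34.1 and 21.7 CPM), beside their Xist. Without X and Y genes the counts of called members were the same in all 5 comparisons. None of the 6 genes lies on X or Y, so this step leaves their own counts unchanged. It cannot show whether a difference in sex affects their calls.

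In CIS-null cells 5 of the 6 genes were lower in vitro than ex vivo, and in wild-type cells all 6 were (edgeR quasi-likelihood test, Benjamini-Hochberg adjusted p under 0.05). Over all tested genes 37.5% were called lower in CIS-null cells and 31.6% in wild-type cells. The size of the fall ran from 4257-fold for S1pr5 in CIS-null cells to 1.28-fold for Foxo1 in wild-type cells. The median log2 fold change of the 6 genes was -3.83 in CIS-null cells, beside -0.05 over all tested genes, and -4.52 in wild-type cells, beside -0.00 over all tested genes. In these bulk libraries fewer cells of a type and less RNA per cell cannot be told apart. Markers of monocytes and macrophages moved with culture, and 6 of their 8 tested markers were called lower in each genotype. Csf1r, their growth factor receptor gene, was at 0 to 0.0385 CPM in CIS-null in vitro cells, against 47.2 to 65.3 CPM in CIS-null ex vivo cells, and at 0 to 0.0348 CPM in wild-type in vitro cells, against 31.2 to 51.7 CPM in wild-type ex vivo cells. The whole list summed to 1217 to 1507 CPM in CIS-null in vitro cells, against 1814 to 2036 CPM in CIS-null ex vivo cells. In wild-type cells it summed to 1684 to 1757 CPM in vitro, against 1575 to 1626 CPM ex vivo. Much of it was Ccr2, which NK cells also express. Ex vivo much was also Ly6c2, at 814 and 914 CPM in CIS-null and 444 and 507 CPM in wild-type cells. On culture Ccr2 was called higher and Ly6c2 lower in each genotype. Neutrophil markers summed to at most 0.0400 CPM in any in vitro library, against 2.21 to 9.13 CPM ex vivo. Basophil and mast cell markers summed to 51.3 to 73.6 CPM in CIS-null in vitro cells, against 16.1 to 34.0 CPM in CIS-null ex vivo cells, and to 28.3 to 36.8 CPM in wild-type in vitro cells, against 7.81 to 8.88 CPM in wild-type ex vivo cells. Of the 7 tested, only 2, Mcpt8 and Cpa3, were called higher on culture in each genotype. By contrast, 5 were called lower in CIS-null cells and 3 in wild-type cells, among them Fcer1a, Ms4a2 and Gata2 in both. The part of these cells in the falls of the 6 genes was not tested. The plot of each gene by library shows the 6 profiles side by side.

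**Figure D1:**
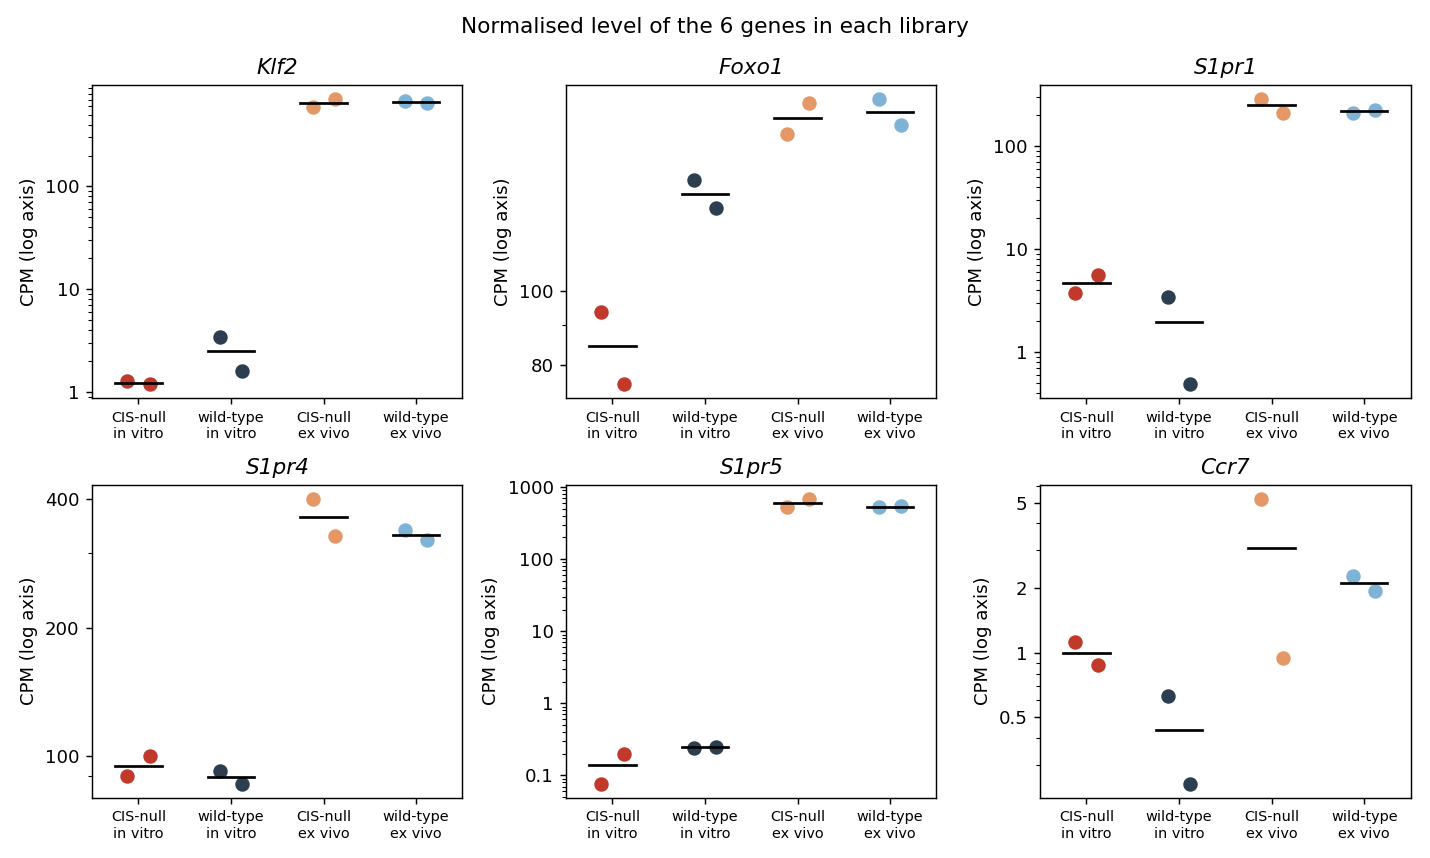
Level of each of the 6 genes in CPM (log axis, a separate range for each gene) in every library of the 4 groups; points are libraries and bars group means, n = 2 per group. Klf2, S1pr1, S1pr4 and S1pr5 sit far lower in both in vitro groups, Foxo1 is lowest in CIS-null in vitro cells, and the CIS-null ex vivo libraries differ widely in Ccr7.

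Klf2, the transcription factor, was almost lost in culture. It lay at 1.27 and 1.20 CPM in CIS-null in vitro cells, against 590.5 and 706.7 CPM in CIS-null ex vivo cells. Wild-type cells held 3.41 and 1.62 CPM in vitro, against 685.7 and 648.5 CPM ex vivo. The in vitro libraries were all far below the ex vivo ones, and in vitro the mean was 0.191% of the ex vivo mean in CIS-null cells and 0.376% in wild-type cells. The log2 fold change on culture was -9.03 in CIS-null cells (SE 0.304, n = 2 per group, edgeR adjusted p = 2.11e-07). The corresponding value of wild-type cells was -8.05 (SE 0.281, adjusted p = 3.12e-07), a 265-fold fall.

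Foxo1, the forkhead factor placed above Klf2 in T cells, moved on a much smaller scale. It lay at 93.6 and 75.5 CPM in CIS-null in vitro cells, 139.5 and 128.3 CPM in wild-type in vitro cells, 160.4 and 176.1 CPM in CIS-null ex vivo cells and 178.0 and 164.9 CPM in wild-type ex vivo cells. The in vitro libraries were lower than the ex vivo libraries of the same genotype without overlap. On culture the log2 fold change was -0.99 in CIS-null cells (SE 0.121, edgeR adjusted p = 0.000112). Wild-type cells gave -0.36 (SE 0.120, edgeR adjusted p = 0.0284). The wild-type call was lost when each library's trend with gene length was removed (-0.05, adjusted p = 0.644) and without wild-type in vitro replicate 2 (0.162), wild-type ex vivo replicate 1 (0.167) or wild-type ex vivo replicate 2 (0.0727).

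S1pr1, the egress receptor of T and B cells, fell in both genotypes. It lay at 3.78 and 5.57 CPM in CIS-null in vitro cells, against 284.9 and 209.9 CPM in CIS-null ex vivo cells. The log2 fold change was -5.73 (SE 0.489, edgeR adjusted p = 1.58e-05). Wild-type cells had 3.44 and 0.492 CPM in vitro, against 211.0 and 223.1 CPM ex vivo, giving -6.78 (SE 0.530, adjusted p = 1.46e-05). As a ratio, the 2 wild-type in vitro libraries differed from each other more than those of any other group did in this gene, yet both lay below every ex vivo library.

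S1pr5, the receptor that NK cells need to leave bone marrow, was close to undetected in vitro. It had 2 and 5 counts in the CIS-null in vitro libraries and 7 and 7 counts in the wild-type in vitro libraries. Ex vivo it had 11465 and 17395 counts in CIS-null cells and 12667 and 13664 counts in wild-type cells. These counts correspond to 0.0771 and 0.200 CPM in CIS-null in vitro cells, 0.243 and 0.246 CPM in wild-type in vitro cells, 528.0 and 684.3 CPM in CIS-null ex vivo cells and 533.0 and 539.3 CPM in wild-type ex vivo cells. The log2 fold change on culture was -12.06 in CIS-null cells (SE 0.264, edgeR adjusted p = 3.62e-08) and -11.07 in wild-type cells (SE 0.245, edgeR adjusted p = 5.19e-08). Among all 13184 tested genes, S1pr5 had the 9th most negative log2 fold change in CIS-null cells and the 14th in wild-type cells. From the summed counts alone, ex vivo cells held 4454 times the S1pr5 of in vitro cells in the CIS-null genotype (95% interval 2161 to 11079) and 2192 times in the wild type (1306 to 4011), intervals that cover counting error only.

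S1pr4 kept a larger part of its level than the other S1P receptors among the 6. It lay at 90.2 and 100.03 CPM in CIS-null in vitro cells, against 400.8 and 327.7 CPM in CIS-null ex vivo cells. Its log2 fold change was -1.94 (SE 0.121, edgeR adjusted p = 3.08e-06). Wild-type cells had 92.5 and 86.4 CPM in vitro, against 338.3 and 320.3 CPM ex vivo, giving -1.88 (SE 0.120, adjusted p = 4.88e-06). The in vitro mean was 26.1% of the ex vivo mean in CIS-null cells and 27.2% in wild-type cells.

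Ccr7, the lymph node homing receptor, was low in every library. It had 29 and 22 counts in CIS-null in vitro cells, 18 and 7 in wild-type in vitro cells, 113 and 24 in CIS-null ex vivo cells and 54 and 49 in wild-type ex vivo cells. Its level was 1.12 and 0.881 CPM in CIS-null in vitro cells, 0.626 and 0.246 CPM in wild-type in vitro cells, 5.20 and 0.944 CPM in CIS-null ex vivo cells and 2.27 and 1.93 CPM in wild-type ex vivo cells. On culture its log2 fold change was -1.60 in CIS-null cells, where the groups overlapped (SE 0.703, edgeR adjusted p = 0.0679). The wild-type value was -2.26 without overlap (SE 0.774, edgeR adjusted p = 0.031). The wild-type call was lost without wild-type in vitro replicate 2 (adjusted p = 0.157), wild-type ex vivo replicate 1 (0.102) or 2 (0.0756), or CIS-null in vitro replicate 1 (0.0524) or 2 (0.0526). Leaving out CIS-null ex vivo replicate 2 turned the CIS-null value into -2.37 (0.00115), and leaving out replicate 1 turned it into 0.09 (0.892).

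Ccr7 is also a gene of B cells, T cells and dendritic cells, and its order over the ex vivo libraries was that of the B cell markers. The 8 B cell markers summed to 78.5 and 6.77 CPM in CIS-null ex vivo cells and to 23.6 and 18.2 CPM in wild-type ex vivo cells, so both Ccr7 and these markers were highest in CIS-null ex vivo replicate 1 and lowest in replicate 2. In vitro the B cell markers summed to 0.761 to 0.771 CPM in CIS-null cells and 0.313 to 0.351 CPM in wild-type cells, with Ms4a1, Pax5 and Fcer2a at 0 counts in all 4 libraries. Ex vivo the 8 T cell markers summed to 230.1 and 146.3 CPM in CIS-null cells and 190.7 and 215.0 CPM in wild-type cells. They too were highest in CIS-null replicate 1 and lowest in replicate 2. Most of each sum was Cd28, at 171.6 and 115.5 CPM in CIS-null and 151.8 and 167.2 CPM in wild-type ex vivo cells. Cd28, Cd3d, Cd4, Cd5 and Cd8b1 each had those ends of the order. Cd3e and Trac were instead lowest in wild-type replicate 1, and Cd3g was highest in wild-type replicate 2. Dendritic cell markers summed to 1033 and 1106 CPM in CIS-null and 1015 and 924 CPM in wild-type ex vivo cells. Nearly all of this was Itgax, at 1028 and 1101 CPM in CIS-null and 1009 and 919 CPM in wild-type ex vivo cells. Flt3, Clec9a, Siglech, Cd209a and Ccl22 reached at most 0.395 CPM in any ex vivo library. The part of any of these cells in the Ccr7 values was not tested. Among endothelial markers, which bear on Klf2 and S1pr1 because vessel cells express both, Emcn was at 0 in all 8 libraries and Cdh5 reached at most 0.0393 CPM, while Pecam1, which leukocytes also express, made up nearly all of the sum.

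**Figure D2:**
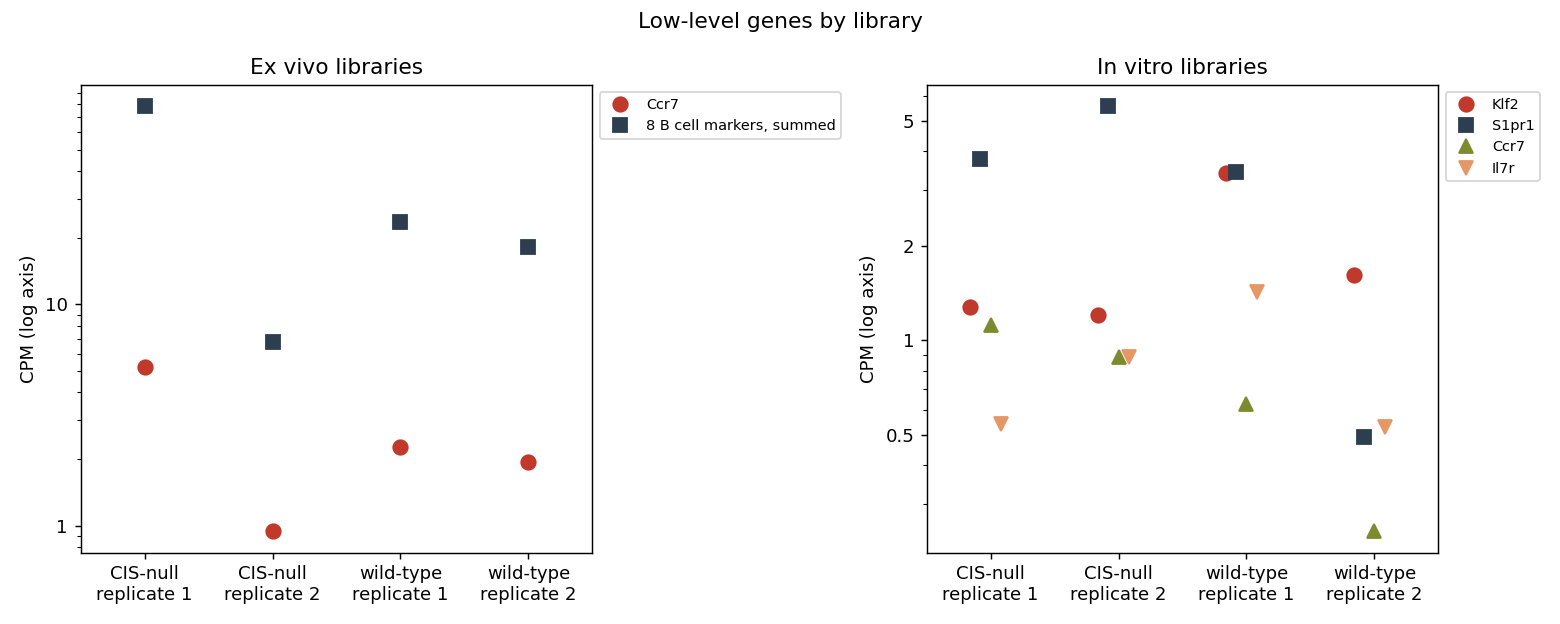
CPM (log axis) of low-level genes in each library, ex vivo on the left and in vitro on the right, 1 point per library and gene. Ccr7 follows the order of the summed B cell markers over the ex vivo libraries, and in vitro S1pr1 and Ccr7 are lowest in wild-type replicate 2.

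Within a library, levels per length of gene (RPKM, reads per kilobase and 1e6 counts, from gene lengths in the count matrix) ranked the genes differently in the 2 states. Ex vivo the order was Klf2, S1pr5, S1pr4, S1pr1, Foxo1 and Ccr7 in both genotypes, and neighbours in it did not overlap. In CIS-null ex vivo cells the means were 357 RPKM for Klf2, 243 for S1pr5, 152 for S1pr4, 81.7 for S1pr1, 30.3 for Foxo1 and 1.56 for Ccr7. In wild-type ex vivo cells they were 367 RPKM for Klf2, 215 for S1pr5, 138 for S1pr4, 71.7 for S1pr1, 30.9 for Foxo1 and 1.06 for Ccr7. In vitro S1pr4 came highest, with 39.7 RPKM in CIS-null and 37.4 RPKM in wild-type cells, and Foxo1 next, with 15.2 RPKM in CIS-null and 24.1 RPKM in wild-type cells. S1pr5, next to the top ex vivo, was the lowest of the 6 in vitro, at 0.0556 RPKM in CIS-null and 0.0980 RPKM in wild-type cells. In wild-type in vitro cells Klf2 and S1pr1 overlapped, as did S1pr1 and Ccr7.

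The make-up of the S1P receptor transcripts turned over with culture. S1pr1 to S1pr5 together summed to 50.7 and 53.1 RPKM in CIS-null in vitro cells and 51.5 and 49.2 RPKM in wild-type in vitro cells, against 492.5 and 500.02 RPKM in CIS-null ex vivo cells and 442.4 and 442.7 RPKM in wild-type ex vivo cells. S1pr4 supplied 74.4% and 78.7% of that sum in CIS-null in vitro cells and 75.1% and 73.3% in wild-type in vitro cells, against 34.0% and 27.4% in CIS-null ex vivo cells and 32.0% and 30.2% in wild-type ex vivo cells. S1pr5 supplied at most 0.200% in any in vitro library, against 43.0% and 54.9% in CIS-null ex vivo cells and 48.3% and 48.8% in wild-type ex vivo cells. S1pr2, a receptor known to restrain migration and not a member of the 6, supplied 16.9% to 25.5% in vitro, against 3.89% to 4.29% ex vivo. Its own mean was 28.3 CPM in CIS-null in vitro cells, against 54.4 CPM in CIS-null ex vivo cells (log2 fold change -0.94, edgeR adjusted p = 0.000162), and 33.5 CPM in wild-type in vitro cells, against 51.5 CPM in wild-type ex vivo cells.

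Ex vivo 0 of the 6 genes were called between CIS-null and wild-type cells by edgeR, and 0 also by DESeq2, limma-voom and limma on log2 RPKM. At an unadjusted p under 0.05 the edgeR count of the 6 was likewise 0. Of all tested genes 0.0607% were called in either direction (8 genes, with 844 at an unadjusted p under 0.05). The libraries of the genotypes overlapped for all 6 genes, while 40.3% of all tested genes had libraries that did not overlap. The narrowest interval was that of S1pr4, with a log2 fold change of 0.15 (95% interval -0.12 to 0.41, edgeR adjusted p = 0.782). For Foxo1 it was -0.03 (-0.30 to 0.25, adjusted p = 0.969), for Klf2 -0.04 (-0.49 to 0.40, 0.974) and for S1pr5 0.18 (-0.13 to 0.48, 0.78). S1pr1 had 0.19 with an interval of -0.67 to 1.05 (adjusted p = 0.91) and Ccr7 0.53 with an interval of -0.98 to 2.05 (0.844), so for these 2 genes a 2-fold difference lay inside the interval.

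In vitro Foxo1 was the member called between genotypes, at 93.6 and 75.5 CPM in CIS-null cells, against 139.5 and 128.3 CPM in wild-type cells. It was 1 of the 6 genes called lower, where 14.6% of all tested genes were called lower and 25.6% in either direction. The log2 fold change was -0.66 (SE 0.121, n = 2 per group, edgeR adjusted p = 0.00893). Both CIS-null libraries lay below both wild-type libraries. The call was lost without CIS-null in vitro replicate 2 (adjusted p = 0.0564) or wild-type in vitro replicate 1 (0.066), and the value was -0.34 (0.0196) with length trends removed. Of all genes called in this comparison 42.8% were higher in CIS-null cells. That share was 21.2% with library totals as the scale, which moved the median log2 fold change of all genes to -0.13, and 53.4% with length trends removed.

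Markers of T cells stood apart in the same libraries. The 8 markers summed to 952 to 956 CPM in CIS-null in vitro cells and 233 to 271 CPM in wild-type in vitro cells. Of the 8, 5 were called higher, beside 11% of all tested genes. The sums were carried by Cd3g, Cd3d, Cd28 and Cd3e. Cd4 was at 0 and 0.0400 CPM and Cd8b1 at 0.655 and 0.441 CPM in CIS-null in vitro cells, with Cd5 and Cd8b1 at 0 in wild-type in vitro replicate 2. The part of these transcripts in the Foxo1 difference was not tested.

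Klf2 did not pass the threshold between genotypes in vitro, although its libraries did not overlap, at 1.27 and 1.20 CPM in CIS-null cells, against 3.41 and 1.62 CPM in wild-type cells. Its log2 fold change was -1.02 (SE 0.346, edgeR adjusted p = 0.0608). DESeq2 called it (-0.995, adjusted p = 0.00298). So did limma on log2 RPKM (-0.86, 0.0384), edgeR with library totals (-1.15, 0.0416) and edgeR without wild-type in vitro replicate 2 (-1.46, 0.0191), and it was -0.35 (0.415) without wild-type in vitro replicate 1. The level at issue is under 1% of that ex vivo in either genotype.

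S1pr1 had its higher values in CIS-null cells in vitro, with 3.78 and 5.57 CPM in CIS-null cells, against 3.44 and 0.492 CPM in wild-type cells. The log2 fold change of 1.24 did not pass (SE 0.571, edgeR adjusted p = 0.142). It rested on wild-type in vitro replicate 2, being 0.44 (adjusted p = 0.382) without that library and 3.27 (adjusted p = 0.0137) without replicate 1. S1pr4 differed by 0.09 (95% interval -0.18 to 0.36, adjusted p = 0.613) and changed sign with library totals (-0.05). S1pr5 had -0.81 (-2.21 to 0.59, 0.36) on 7 counts in CIS-null cells and 14 in wild-type cells. Ccr7 had 1.19 (-0.67 to 3.04, 0.311) on 51 counts in CIS-null cells and 25 in wild-type cells.

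S1pr1, Klf2 and Ccr7 were lower in that library than in the other wild-type in vitro library, as was Il7r, a FOXO-induced gene named after its value was seen. The log2 ratio of wild-type in vitro replicate 2 to replicate 1 was -1.99 for S1pr1, -0.91 for Il7r, -0.88 for Klf2 and -0.59 for Ccr7 (0.5 CPM added before the ratio). Over all tested genes these stood at percentiles 0.0379, 0.994, 1.12 and 2.54 from the lowest. Foxo1 (-0.12), S1pr4 (-0.10) and S1pr5 (0.01) did not share this. Of the 21 tested FOXO-induced genes 15 were lower in replicate 2 (median log2 ratio -0.13), as were 9 of the 14 tested regulators and targets of KLF2 (median -0.05), beside 48.7% of all tested genes (median 0). These are 2 libraries of 1 group, compared as a description.

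By edgeR, 0 of the 6 genes had a genotype effect that differed between in vitro and ex vivo cells, with 2 of the 6, Klf2 and Foxo1, at an unadjusted p under 0.05. Of all tested genes 0.137% were called (18 genes, with 2586 at an unadjusted p under 0.05), and without X and Y genes 1 gene was called. For Foxo1 the difference of log2 fold changes was -0.64 (SE 0.170, edgeR adjusted p = 0.122). DESeq2 called this difference (-0.60, adjusted p = 0.0393), as did edgeR when CIS-null in vitro replicate 1 was left out (-0.80, 0.0483). Klf2 had -0.98 (edgeR adjusted p = 0.23) and S1pr1 1.05 (0.436). For S1pr4, S1pr5 and Ccr7 the adjusted p lay between 0.424 and 0.892.

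**Figure D3:**
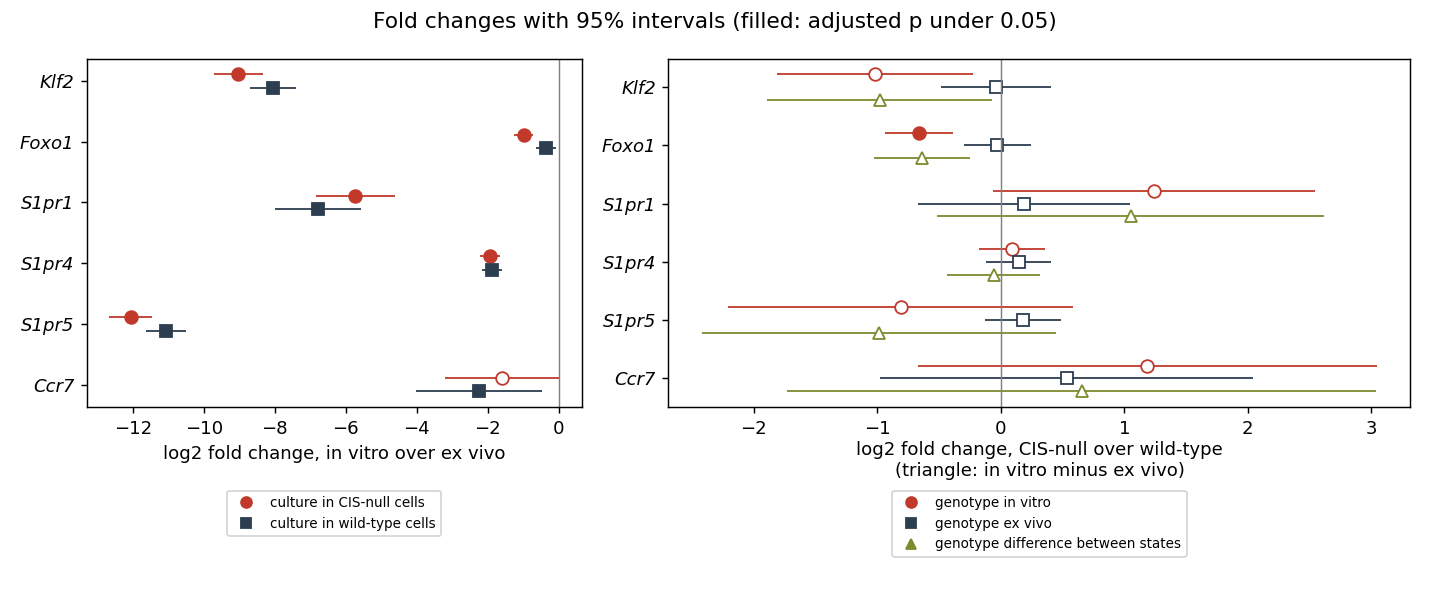
Log2 fold change of each of the 6 genes on culture (left) and between genotypes (right, triangles for the in vitro minus ex vivo difference), from the edgeR fit; points are estimates, bars 95% intervals, and filled points have an adjusted p under 0.05. On culture the fall runs from Foxo1 (-0.36 in wild-type cells) to S1pr5 (-12.06 in CIS-null cells), and between genotypes Foxo1 in vitro is the filled point.

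Other genes around the axis were counted in 8 lists, 144 tested genes in all, with 5 genes in more than 1 list. The list of S1P metabolism also holds the receptors S1pr2 and S1pr3. Between genotypes ex vivo 1 gene of these lists was called, Cxcr6. Each count is set beside the share of all tested genes called: 34.8% higher and 37.5% lower on culture in CIS-null cells, 32.1% higher and 31.6% lower on culture in wild-type cells, and 11% higher and 14.6% lower in CIS-null cells in vitro. The medians of the lists stand beside -0.05 on culture in CIS-null cells, -0.00 on culture in wild-type cells and 0 between genotypes in vitro over all tested genes. Between genotypes in vitro the median was -0.22 for Kruppel-like factors, -0.15 for KLF2 regulators and targets, -0.06 for G protein signalling and -0.06 for homing receptors, and those of the other 4 lists follow beside their counts. The T cell marker sums given above also differ between the libraries behind each genotype count in vitro, and their part in those counts was not tested. Without CIS-null in vitro replicate 2, the genotype counts in vitro were 2 for FOXO1 regulators, 0 for FOXO-induced genes, 1 for Kruppel-like factors, 2 for KLF2 regulators and targets, 1 for G protein signalling, 0 for S1P metabolism, 0 for S1pr5 regulators and 0 for homing receptors, each under the count with all libraries.

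Upstream of FOXO1, 14 of 21 tested regulators and relatives fell and 4 rose on culture in CIS-null cells, and 12 fell and 4 rose in wild-type cells (median log2 fold change -0.50 in CIS-null and -0.27 in wild-type cells). Sgk1, a kinase that phosphorylates FOXO1, had a mean of 8.63 CPM in wild-type in vitro cells, against 83.7 CPM in wild-type ex vivo cells (log2 fold change -3.28, edgeR adjusted p = 8.81e-05). Stk4, the MST1 kinase that favours nuclear FOXO1, fell to 225 CPM in CIS-null in vitro cells, against 592 CPM ex vivo (-1.40, 1.03e-05). Skp2, a ubiquitin ligase subunit for FOXO1, and Ywhae, a 14-3-3 protein that holds FOXO1 in the cytoplasm, rose in both genotypes, by 1.72 and 1.33 in CIS-null cells and 1.46 and 1.26 in wild-type cells. Between genotypes in vitro 7 were lower and 1 higher (median -0.10). The acetyltransferases Crebbp (-1.35, adjusted p = 0.00331) and Ep300 (-1.22, 0.0046) and the relative Foxo4 (-0.71, 0.0087) were lower in CIS-null cells, and the methyltransferase Prmt1 was higher (0.48, 0.0104).

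Among 21 tested genes known to be induced by FOXO factors, 14 fell and 3 rose on culture in CIS-null cells, and 11 fell and 4 rose in wild-type cells (median log2 fold change -1.15 in CIS-null and -0.68 in wild-type cells). Il7r, the interleukin 7 receptor chain, fell with log2 fold changes of -5.89 in CIS-null cells (edgeR adjusted p = 7.4e-06) and -5.61 in wild-type cells (1e-05). Sesn1, Sesn2, Pik3ip1 and Bcl2l11 were those that rose in wild-type cells, by 0.44 to 0.85 on the log2 scale, and they were named after their values were seen. In vitro 5 genes of the list were lower in CIS-null cells and none was higher (median -0.36). They included Bach2 (mean 4.88 CPM in CIS-null cells, 10.9 CPM in wild-type cells, adjusted p = 0.00827), Bcl6 (0.0117), Fbxo32 (0.0152) and Tcf7 (57.4 CPM in CIS-null cells, 96.3 CPM in wild-type cells, 0.0369). Without 1 library at a time this count of 5 ranged between 0 and 8, the highest without either CIS-null ex vivo library.

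Other Kruppel-like factors went down with Klf2. Of 11 tested, 9 fell and 1 rose in CIS-null cells on culture, and 8 fell and 2 rose in wild-type cells (median log2 fold change -0.65 in CIS-null and -0.55 in wild-type cells). Klf3, known as a repressor that binds the same CACCC sequence, showed the largest fall among those named, to a mean of 2.80 CPM in CIS-null in vitro cells, against 213 CPM ex vivo (log2 fold change -6.25, edgeR adjusted p = 3e-07). Wild-type cells held 2.18 CPM of it in vitro, against 234 CPM ex vivo (-6.74, 3.06e-07). Klf8 rose in wild-type cells (1.19, 0.000837). Between genotypes in vitro, Klf12 (-1.35, 0.00381), Klf13 (-0.75, 0.00939) and Klf7 (-0.91, 0.0148) were lower in CIS-null cells.

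Of 14 tested regulators and known targets of KLF2, 12 fell and 2 rose on culture in CIS-null cells, and 11 fell and 2 rose in wild-type cells (median log2 fold change -1.0 in CIS-null and -0.73 in wild-type cells). Map3k3, a kinase upstream of ERK5, fell with log2 fold changes of -1.88 in CIS-null cells (edgeR adjusted p = 1.15e-06) and -1.20 in wild-type cells (1.49e-05). Mef2c, whose family motif lies in the Klf2 promoter, had -4.19 in CIS-null cells (1.84e-05). In vitro it averaged 3.03 CPM in CIS-null cells and 11.7 CPM in wild-type cells (-1.95, 0.00993). The 2 that rose in wild-type cells on culture were Cdkn1a, a cell cycle inhibitor that KLF2 is known to induce (3.60, 8.97e-07), and Cd69. Between genotypes in vitro 4 of the 14 were lower in CIS-null cells and 1, Cdkn1a, was higher (0.88, 0.00612). Besides Mef2c, the lower ones included Map3k3 (-0.62, 0.00572) and Smurf1, a ubiquitin ligase for KLF2 (-0.56, 0.0266).

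Around the S1P receptors, 8 of 27 tested genes of G protein signalling and desensitisation rose and 12 fell on culture in CIS-null cells, and 7 rose and 11 fell in wild-type cells (median log2 fold change -0.24 in CIS-null and -0.10 in wild-type cells). Cd69, whose product binds S1PR1 and removes it from the cell surface, rose to a mean of 316 CPM in CIS-null in vitro cells, against 30.0 CPM ex vivo (log2 fold change 3.40, edgeR adjusted p = 9.2e-07). The wild-type mean rose to 244 CPM in vitro, against 27.1 CPM ex vivo (3.17, 1.77e-06). Rgs16 and Rgs18, which shorten G protein signals, rose by 3.31 and 2.16 in CIS-null cells and by 3.33 and 2.88 in wild-type cells. Between genotypes in vitro 5 of the 27 were lower in CIS-null cells (18.5%, beside 14.6% of all tested genes) and 1, Rgs16, was higher (0.65, 0.047). Grk5, a receptor kinase, fell in both and was lower in CIS-null than in wild-type cells in vitro (-1.14, 0.002). Grk2, the kinase that desensitises S1PR1 in blood, was listed under its older symbol and was also lower there (-0.40, 0.0278), as were Dnm2 (-0.75, 0.00818) and Dock2 (-0.90, 0.00978).

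Genes of S1P metabolism and transport, counted together with the receptors S1pr2 and S1pr3, did not move one way. Of 19 tested, 6 rose and 7 fell on culture in CIS-null cells, and 4 rose and 10 fell in wild-type cells (median log2 fold change -0.11 in CIS-null and -0.39 in wild-type cells). Spns2, an S1P exporter, rose to a mean of 7.21 CPM in CIS-null in vitro cells, against 1.16 CPM ex vivo (log2 fold change 2.64, edgeR adjusted p = 2.85e-05). Sgpl1, the lyase that degrades S1P, fell with -0.70 in CIS-null cells (0.000104) and -0.65 in wild-type cells (0.000238). In vitro 3 genes were higher in CIS-null cells and none was lower (median 0.28, or 0.23 with a gene at 0 counts set to its bound): Plpp2 (0.76, 0.00636), Cers2 (0.48, 0.00944) and Acer3 (0.61, 0.0246), of which the first is a lipid phosphatase and the others act in ceramide metabolism.

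Of 14 tested regulators of S1pr5 and of NK maturation, 12 fell and none rose on culture in CIS-null cells, and 11 fell and 1 rose in wild-type cells (median log2 fold change -1.92 in CIS-null and -1.35 in wild-type cells). Tbx21, which encodes T-bet, a factor needed for S1pr5 expression in NK cells, fell to a mean of 118 CPM in CIS-null in vitro cells, against 858 CPM ex vivo (log2 fold change -2.86, edgeR adjusted p = 3.55e-06). The wild-type mean fell to 157 CPM in vitro, against 765 CPM ex vivo (-2.29, 1.46e-05). Zeb2, which acts with T-bet in NK maturation, fell to 7.04 CPM in CIS-null in vitro cells, against 214 CPM ex vivo (-4.92, 1.07e-06), and to 15.5 CPM in wild-type in vitro cells, against 244 CPM ex vivo (-3.98, 3.01e-06). Between genotypes in vitro 7 were lower and 1 higher in CIS-null cells (median -0.60), among them Foxp1 (-1.10, 0.00646), Eomes (-0.58, 0.00959), Zeb1 (-0.71, 0.0111) and Zeb2 (-1.13, 0.013).

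Among 23 other tested homing and retention receptors, 15 fell and 4 rose on culture in either genotype (median log2 fold change -1.12 in CIS-null and -1.26 in wild-type cells). Itga4, the α4 integrin chain, fell to a mean of 76.6 CPM in CIS-null in vitro cells, against 1734 CPM ex vivo (log2 fold change -4.50, edgeR adjusted p = 3.25e-07). Itgb1 and Itgb2 fell too, with -1.83 and -1.85 in CIS-null cells and -1.63 and -1.81 in wild-type cells. Cxcr6, a receptor of tissue-resident lymphocytes, went against them and rose to 640 CPM in CIS-null in vitro cells, against 24.0 CPM ex vivo, and to 343 CPM in wild-type in vitro cells, against 6.52 CPM ex vivo. It was also higher in CIS-null than in wild-type cells in vitro (0.90, 0.0119) and ex vivo (1.88, 0.0315), a call that 6 of the alternatives did not make. Itgal (-0.50, 0.0302) and Cd44 (-0.31, 0.0372) were lower in CIS-null cells in vitro.

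**Figure D4:**
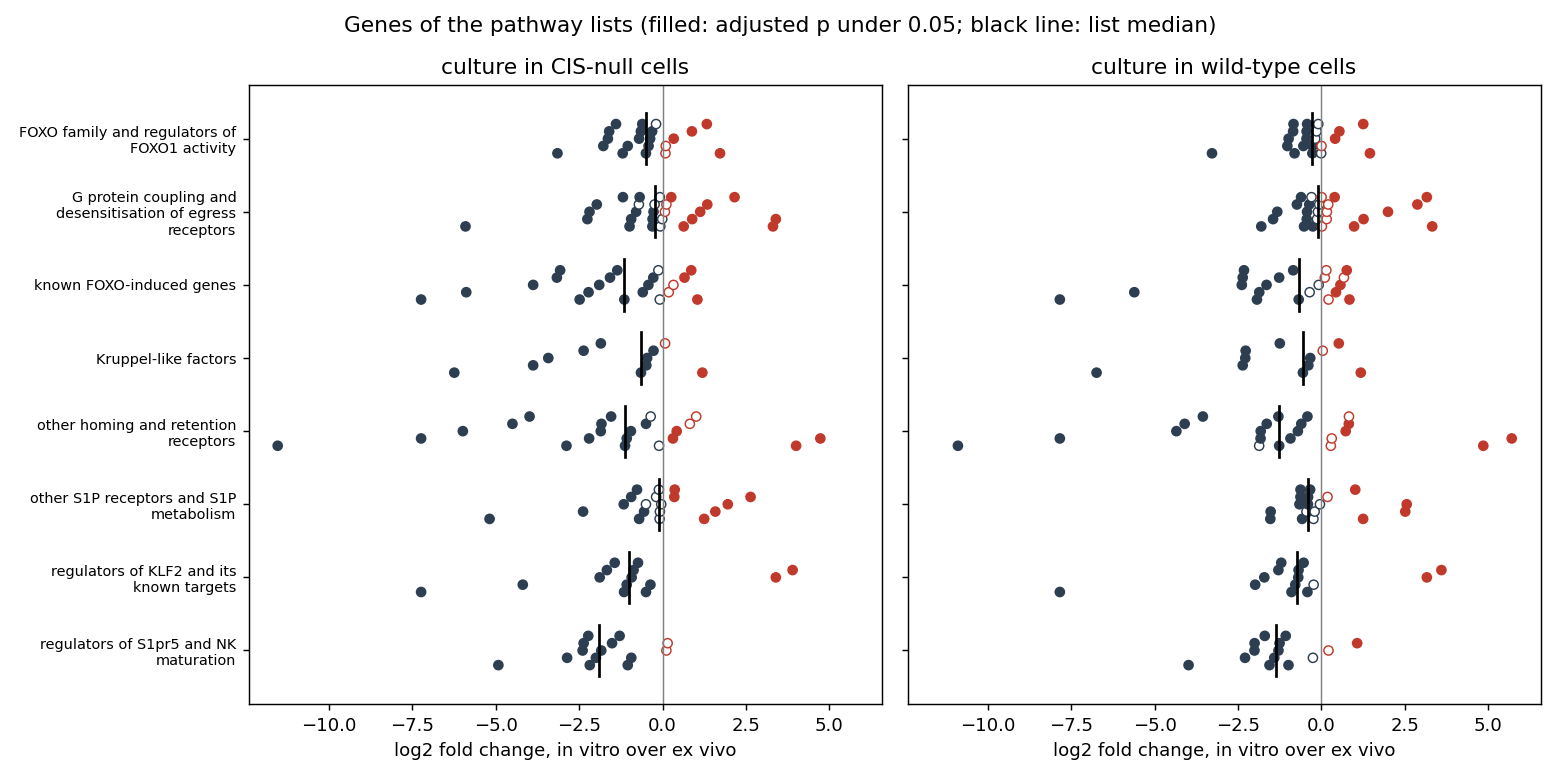
Log2 fold change (in vitro over ex vivo) of each tested gene in the 8 lists, in CIS-null cells on the left and wild-type cells on the right; filled points have an adjusted p under 0.05, black lines are list medians, and a gene with 0 counts in a compared group is not drawn. The lists of S1pr5 regulators and of KLF2 regulators and targets lie mostly below 0. Those of other S1P receptors and S1P metabolism and of G protein signalling lie on both sides.

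Genes whose profiles were nearest to those of the 6 were sought among 9162 genes of at least 5 CPM. The measure was the root mean square difference of centred log2 profiles over the 8 libraries (0.5 CPM added before the log). For Klf2 the nearest were Rap1gap2 (0.36), As3mt (0.39) and Cx3cr1 (0.47), where the median over all genes compared was 4.12. For S1pr5 they were Cma1 (0.67), As3mt (0.74) and Cx3cr1 (0.78), beside a median of 4.85. S1pr1 was nearest to Sidt1 (0.53), Klf3 (0.53) and Abca1 (0.58), beside 3.18. Foxo1 was nearest to Wdr81 (0.04), Smad1 (0.05) and Zbtb40 (0.05), beside 0.51, and S1pr4 to Fbxl2 (0.09), Rap2b (0.10) and Rgs2 (0.11), beside 0.98. Ccr7 was nearest to Hsd17b11 (0.44), COX3 (0.45) and Rps4l (0.45), beside a median of 0.90. Among the 6 genes themselves the smallest distance was between S1pr4 and Ccr7 (0.61), followed by Foxo1 and S1pr4 (0.69), Foxo1 and Ccr7 (0.78), and Klf2 and S1pr5 (0.81), while Foxo1 and S1pr5 were farthest apart (4.51). These distances are not scaled to how much each gene changes. Foxo1 lay farther from S1pr4 and Ccr7 than its median of 0.51. Klf2 and S1pr5 lay far under their medians of 4.12 and 4.85. The in vitro means of S1pr5 (0.139 CPM in CIS-null, 0.245 CPM in wild-type cells), As3mt and Cx3cr1 lay under the added 0.5 CPM. Their falls are thus smaller on this scale than as fold changes, which bears on the distances of these genes. The first principal component, which separated in vitro from ex vivo libraries, held 87.6% of the variance.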

How the data were processed

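RNA sequencing libraries of NK cells were grouped by the genotype and culture state in the labels. The authors used Subread, featureCounts and limma with the GRCm38 (mm10) genome, per the submitters' processing notes. Versions and settings are not given in the sources used here. Tests used the deposited raw read counts (27179 genes, 565 without a symbol). The authors also deposited log2 RPKM values of 12372 genes, which served for 1 alternative.

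The analysis ran in R 4.3.3 on edgeR 4.0.16: filterByExpr by group (minimum count 10, total 15), TMM scaling, 1 mean per group over all 8 libraries (4 residual degrees of freedom) and quasi-likelihood tests, tested on simulated data. Benjamini-Hochberg adjustment was made over 13184 genes, with a threshold of 0.05. In the simulated data the share of calls that were false was above 0.05 in both genotype comparisons, more so ex vivo. CPM used the scaled library sizes. Each standard error was derived from the log2 fold change and its F statistic. Depth was 21.5 to 28.1 M counts, and chi-square per degree of freedom between replicates was 5.70 to 32.1, above counting error. Alternatives included DESeq2 1.42.0, limma-voom and limma 3.58.1, other scalings and filters, each library's length trend removed (spline, 4 degrees of freedom), and leaving out each library. Promoters and positions came from RefSeq (GRCm38.p6), overlaps from GENCODE M21.

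Members and lists were chosen with earlier results of these data known. Named were the 6 genes, Cish, up to 4 called members of each list per comparison by lowest adjusted p, the 3 nearest profiles per gene, and of each marker list the first marker and those at 0; other markers and the genes said to be so were named after their values were seen. Some genes this rule names are not reported here. Deviations of same-numbered replicates from their group means had correlations from -0.33 (CIS-null in vitro with CIS-null ex vivo) to 0.17 (CIS-null with wild-type ex vivo). The labels do not say that replicates with the same number belong together, so the sign has no fixed meaning.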

Additional observations from a re-analysis of the deposited data

How the results depend on the processing

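Of the results of the 6 genes over the alternatives, 581 kept their direction and side of the threshold, 11 lost and 10 gained a call, and 15 changed sign. The falls of Klf2, S1pr1, S1pr4 and S1pr5 on culture passed in all alternatives run in both genotypes. In vitro 1 of the 6 genes was called between genotypes, 2 with library totals, by DESeq2 or by limma on log2 RPKM (Klf2 was added), and 0 to 2 when 1 library was left out. For the difference between states the count was 0, 1 by DESeq2, and 0 to 1 when 1 library was left out. Ex vivo it stayed at 0 throughout. Called counts on culture were 4 to 6 in wild-type cells and 5 to 6 in CIS-null cells when 1 library was left out.

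Signs changed for S1pr4 between genotypes in vitro with library totals (-0.0468) and for Foxo1 ex vivo with length trends removed (0.0430). When 1 library was left out, log2 fold changes between genotypes ex vivo ran from -0.175 to 0.0825 for Klf2, -0.0946 to 0.0378 for Foxo1, -0.0489 to 0.393 for S1pr1, -0.00813 to 0.285 for S1pr4, -0.0207 to 0.351 for S1pr5 and -1.15 to 1.31 for Ccr7, and the differences between states from -0.196 to 0.0961 for S1pr4 and -0.12 to 2.34 for Ccr7. Ccr7 on culture in CIS-null cells ran from -2.37 to 0.0851, and it passed by DESeq2 (adjusted p = 0.0338) and with length trends removed (0.045). Such fits take the remaining sample of a group to have the spread of the other groups.

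With the replicate number as a block, counts of called members were 0 ex vivo, 1 in vitro, 0 for the difference, 6 on culture in wild-type cells and 5 in CIS-null cells, as without it. Genes called over the whole table numbered 3374 in vitro (2527 with the block, 500 to 4296 without 1 library), 8 ex vivo (3 to 45 over all alternatives) and 18 for the difference (1 without X and Y genes or by limma on log2 RPKM, 592 by DESeq2). Depth limits S1pr5 in vitro, where counts of 2 to 7 per library leave a genotype interval of -2.21 to 0.59, and Ccr7. Causes of these shifts were not tested. The compared samples alone were not fitted for the difference between states, which needs all 4 groups.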

Other observations

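Among the genes lowest in wild-type in vitro replicate 2 against replicate 1 were Capn11, Pydc3, Klra6, Lrrc25 and S1pr1, of 13184 tested genes (0.5 CPM added). Pydc3, a PYHIN family gene, lay at 7.55 CPM in replicate 2 and 51.0 CPM in replicate 1, and Klra6, a Ly49 receptor gene, at 5.66 and 26.9 CPM. Capn11 lay at 0.0703 CPM in replicate 2 and 5.07 CPM in replicate 1, and Lrrc25 at 0.632 and 4.28 CPM. Pydc3 and Klra6 belong to families of closely related copies whose counts are uncertain.

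Markers of type 1 innate lymphoid cells, of which 7 of 8 were found, summed to 1387 to 1437 CPM in CIS-null in vitro cells and 1128 to 1386 CPM in wild-type in vitro cells, against 130 to 133 CPM in CIS-null ex vivo cells and 97.7 to 122 CPM in wild-type ex vivo cells. On culture in wild-type cells 6 of the 7 were called higher and 1, Il7r, lower, beside 32.1% higher and 31.6% lower over all tested genes. Cxcr6 and Itga1, which mark resident lymphocytes, thus went up in the same libraries in which Klf2, S1pr1 and S1pr5 went down, and the part of either in the other was not tested.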
